A study of Mus musculus with 17 samples.

Results

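The lysyl oxidase family was followed in cultured mouse lung fibroblasts as the 5 genes Lox, Loxl1, Loxl2, Loxl3 and Loxl4. The members were the rows of the deposited count matrix with these symbols, 5 of 55421 genes, and all 5 passed the filter on low counts that left 10481 genes. Total RNA-Seq was measured in 17 libraries, each from the lung cells of 1 mouse, cultured as fibroblasts and passaged once. Their marker content, given below, differed widely between libraries. Every mouse was Ephb4f/f;Col1a2-CreERT2, so that Cre acts only in cells that use the Col1a2 promoter and only after 4-hydroxytamoxifen. Ephb4 control mice received corn oil and Ephb4 CKO mice received 4-hydroxytamoxifen (1 mg per day for 5 days) at 4 weeks of age. At 6 weeks of age they were given bleomycin (1.2 U/kg), which damages lung epithelium and leads to scarring, or PBS, and their lungs were taken on day 14. They are called control and CKO mice below, and the groups were control PBS (n = 4), control bleomycin (n = 4), CKO PBS (n = 5) and CKO bleomycin (n = 4). Genotype below means this difference between CKO and control mice. No mice without the floxed alleles or Cre were given 4-hydroxytamoxifen, so drug and deletion cannot be told apart. Mouse numbers below only name the libraries of a group and pair nothing between groups.

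Lysyl oxidases are secreted, copper-dependent amine oxidases that turn lysine side chains of collagen and elastin into reactive aldehydes. These aldehydes then form the covalent crosslinks that make collagen fibrils stiff and elastic fibres stable, and their build-up is a feature of the scarred lung. Lox and Loxl1 carry a propeptide that proteinases such as Bmp1 remove, while Loxl2, Loxl3 and Loxl4 carry scavenger receptor cysteine-rich domains instead, and all members share a catalytic domain near the carboxyl end.

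The catalytic domain binds copper through a run of histidines, and the coding stretch for it is shown because it is the part that defines the family and because it includes bases shared between Loxl2 and a copy of it. The stretch of Lox is not shown. The lines below give this stretch 5′ to 3′ on the coding strand, from the GENCODE M21 transcripts (GRCm38), with the histidine codons in capitals.
Loxl1: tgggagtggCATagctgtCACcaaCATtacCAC
Loxl2: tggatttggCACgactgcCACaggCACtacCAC
Loxl3: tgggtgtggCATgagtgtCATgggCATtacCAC
Loxl4: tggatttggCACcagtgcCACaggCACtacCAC
Gm21451: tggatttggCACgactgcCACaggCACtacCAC
Each stretch is 33 bases long and runs over an exon junction. It joins exons 3 and 4 of Loxl1-201 (chr9:58293720-58294381, minus strand, intron included), exons 10 and 11 of Loxl2-201 (chr14:69682316-69689037, plus strand), exons 10 and 11 of Loxl3-201 (chr6:83049995-83050125, plus strand) and exons 11 and 12 of Loxl4-201 (chr19:42598807-42599899, minus strand). Among the 4 members shown, Loxl2 and Loxl4 differed at 2 of the 33 bases, Loxl1 and Loxl3 at 8, and Loxl1 and Loxl4 at 12. No window of 75 bases, the length of the reads, was shared between the exons of any pair of the 5 members.

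Gm21451 (ENSMUSG00000094526), an unprocessed pseudogene on the same strand as Loxl2, was identical to Loxl2 in this stretch. It lies at chr14:69390854-69480287 and ends 128780 bp before Loxl2 begins. Of its 2701 windows of 75 bases, 2274 (84.2%) occurred unchanged in the exons of Loxl2, where they made up 42.7% of the windows. In the deposited counts Gm21451 held between 29.6% and 35.9% of the Loxl2 count in every library, with a median of 33.1%. The counts of Loxl2 therefore hold an uncertain share of the reads that fit either gene. The fold changes of Loxl2 were recomputed with both counts summed, an alternative chosen after the data had been seen. The summed log2 fold change was -4.15 for CKO versus control after bleomycin and 1.98 for bleomycin versus PBS in controls, against -4.14 and 1.94 for Loxl2 alone. With so even a share of Gm21451 the sum could differ little from Loxl2 alone, so these values cannot show whether the shared reads were divided correctly.

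**Figure D1:**
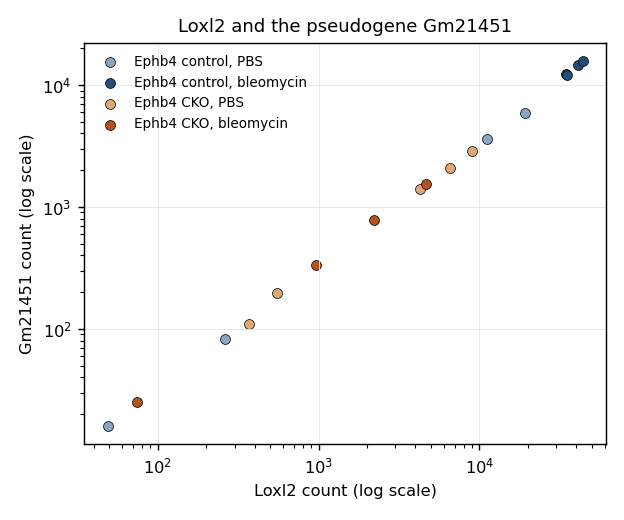
Deposited count of Gm21451 against that of Loxl2 in the 17 libraries, both on log scales, with 1 point per library coloured by group. The points lie along a line over the whole range, with Gm21451 at 29.6% to 35.9% of the Loxl2 count.

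Lox (ENSMUSG00000024529) is on chromosome 18 of GRCm38, on the minus strand, and shares its span with an antisense gene, AC161119.1, whose count was 9 to 363 per library. Loxl1 (ENSMUSG00000032334) lies at chr9:58287738-58313186 on the minus strand and overlaps no other annotated gene. Loxl2 (ENSMUSG00000034205) lies at chr14:69609068-69695834 on the plus strand, across from the antisense gene Gm27177. Loxl3 (ENSMUSG00000000693) lies at chr6:83034173-83052562 on the plus strand and overlaps Htra2, a protein-coding gene of the opposite strand with counts of 918 to 3770. Loxl4 (ENSMUSG00000025185) lies at chr19:42593982-42612813 on the minus strand with no overlapping gene. The alignment was strand-specific, so reads of opposite strands were assigned separately.

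Library totals ranged from 66540022 to 120554468 counts (median 93075927) and overlapped between the groups. The levels of sex-linked genes went against the labelled sex in 3 libraries (control bleomycin mouse 2, CKO bleomycin mouse 1 and CKO bleomycin mouse 2). The members' fold changes are also given without these 3. The values of Ephb4, the pathway list and the correlations without them were added after the data had been seen. The targeted gene Ephb4 was at 24.2, 4.00, 33.4 and 2.32 CPM (counts scaled to the library size) in control PBS mice, and at 7.70, 23.6, 8.97, 4.01 and 4.05 CPM in CKO PBS mice. With bleomycin its level was 65.1, 13.1, 35.3 and 40.5 CPM in control mice and 14.0, 9.53, 10.1 and 4.93 CPM in CKO mice. The ranges overlapped in both pairs, so Ephb4 RNA alone did not separate the genotypes. Its log2 fold change in CKO mice was -2.00 (SE 0.79) after bleomycin and -0.73 (SE 0.72) after PBS, with edgeR's quasi-likelihood adjusted p of 0.220 and 1.00. It was -2.68 (SE 1.15) and -0.71 (SE 0.75) without the 3 libraries. The labelled cell type was checked with 14 fibroblast and 18 macrophage genes. Summed fibroblast markers ranged from 810 to 1505 CPM in control mice given bleomycin but from 11.7 to 1246 CPM, 13.2 to 806 CPM and 9.68 to 607 CPM in control PBS, CKO PBS and CKO bleomycin mice. Up to 2 of the 14 were at 0 in a library, and in the poorest library of each of these 3 groups between 2 and 4 of them exceeded 1 CPM. The 806 CPM was in CKO PBS mouse 1 and came mostly from 1 gene, Dcn, which reached 770 CPM. In that library 7 of the 14 exceeded 1 CPM. In CKO bleomycin mouse 4 the fibroblast markers summed to 9.68 CPM and the macrophage markers to 37975 CPM, and in control PBS mouse 4 they summed to 11.7 and 41570 CPM. Summed macrophage markers were between 10205 and 45171 CPM in all libraries but control bleomycin mouse 1, at 1308 CPM, in cultures labelled as fibroblasts. In bulk RNA, fewer cells of a type and less RNA per cell cannot be told apart.

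Lox was the most abundant member. Levels between genes are given as CPM per kilobase of merged exon. On this scale Lox was the highest of the 5 in 15 of 17 libraries and averaged 134 ± 62.5 (SD, n = 4) in control mice given bleomycin, against 62.4 ± 10.4 for Loxl2, 32.4 ± 10.4 for Loxl1, 16.1 ± 1.52 for Loxl3 and 5.35 ± 3.53 for Loxl4. The exceptions were control bleomycin mouse 2, in which Loxl2 made up 38.1% of the family and Lox 35.1%, and CKO PBS mouse 3, in which Loxl1 made up 31.3%, Loxl2 28.9% and Lox 25.9%. Loxl4 was the lowest member in 10 libraries and Loxl1 in 5.

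**Figure D2:**
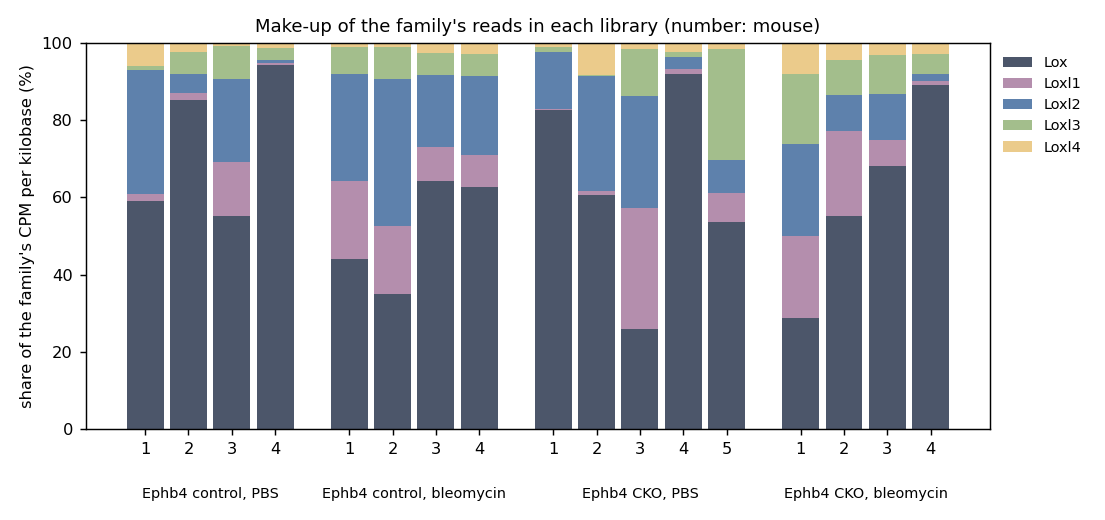
Share of each member in the family's summed CPM per kilobase of exon, as percent, in each of the 17 libraries, ordered by group and mouse number. The range of each member's share was narrowest in control bleomycin mice, where Loxl1 made up 8.14% to 20.4%, while over the other libraries Loxl1 lay between 0.352% and 31.3%.

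Lox made up 35.1% to 64.2% of the family in control bleomycin mice and 55.1% to 94.3% in control mice given PBS. In CKO mice its share was 25.9% to 92.0% after PBS and 28.7% to 89.2% after bleomycin. In control PBS mouse 4, with the highest share of Lox, the other members were each below 2 CPM while Lox stood at 50.6 CPM.

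Lox, the founding member and the main crosslinker of fibrillar collagen and elastin, was at 242, 45.3, 453 and 50.6 CPM in control PBS mice 1 to 4. After bleomycin it was at 482, 316, 796 and 977 CPM in control mice. In CKO mice it was at 259, 275, 58.9, 111 and 38.4 CPM after PBS and at 21.6, 225, 59.9 and 36.9 CPM after bleomycin. The order of the group means was control bleomycin (643 ± 299 CPM, SD), control PBS (198 ± 193), CKO PBS (149 ± 111) and CKO bleomycin (85.8 ± 94.1), and neighbours in this order overlapped in range. All 4 control bleomycin libraries exceeded all 4 CKO bleomycin libraries, of which mouse 2 was the highest.

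Loxl1, which acts on elastin and is held at elastic fibres by fibulin-5, varied widely outside the control bleomycin group. It was at 5.16, 0.630, 79.4 and 0.130 CPM in control mice given PBS and at 154, 109, 76.4 and 87.4 CPM in those given bleomycin. In CKO mice it was at 0.877, 3.48, 49.2, 1.08 and 3.80 CPM after PBS and at 11.1, 61.7, 4.19 and 0.270 CPM after bleomycin. In each of the 3 other groups 1 mouse held most of the signal, control PBS mouse 3, CKO PBS mouse 3 and CKO bleomycin mouse 2. When these were left out, the means were 1.97, 2.31 and 5.17 CPM instead of 21.3, 11.7 and 19.3 CPM, while the control bleomycin mean was 107 ± 34.3 CPM (SD, n = 4). The lowest Loxl1 count in any library was 13, in control PBS mouse 4, above the floor of 3 counts.

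Loxl2, a scavenger-receptor member that crosslinks basement membrane and fibrillar collagen, was at 148, 2.94, 200.0 and 0.491 CPM in control mice given PBS. After bleomycin it was at 341, 389, 258 and 361 CPM in control mice. In CKO mice it was at 52.1, 152, 74.4, 4.09 and 6.85 CPM after PBS and at 20.2, 43.8, 11.8 and 0.869 CPM after bleomycin. The group means were 337 ± 56.1 CPM (SD) in control bleomycin, 87.9 ± 102 in control PBS, 57.9 ± 60.6 in CKO PBS and 19.2 ± 18.2 in CKO bleomycin mice. The control bleomycin libraries did not overlap with any other group, and the highest library outside it, control PBS mouse 3, was below the lowest inside it. The other neighbours in this order overlapped.

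Loxl3, a scavenger-receptor member that is needed for normal palate and spine development in mice, had the tightest values in the bleomycin control group. It was at 74.1, 70.0, 68.7 and 84.1 CPM there, and at 4.73, 2.90, 67.4 and 1.69 CPM in control mice given PBS. In CKO mice it was at 3.75, 0.933, 26.9, 1.54 and 19.8 CPM after PBS and at 13.1, 35.0, 8.53 and 2.08 CPM after bleomycin. The library of control PBS mouse 3 came close to the lowest bleomycin control library, yet the groups did not overlap. The control bleomycin mean was 74.2 ± 6.99 CPM (SD, n = 4), and the other groups overlapped, with means of 19.2 ± 32.2 CPM in control PBS mice, 14.7 ± 14.3 in CKO bleomycin mice and 10.6 in CKO PBS mice.

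Loxl4, the least abundant member, is an amine oxidase with activity on collagen. It was at 21.5, 1.18, 6.23 and 0.601 CPM in control mice given PBS and at 10.8, 9.56, 29.7 and 40.1 CPM after bleomycin. In CKO mice it was at 3.28, 33.7, 3.26, 2.54 and 1.06 CPM after PBS and at 5.42, 16.2, 2.46 and 1.02 CPM after bleomycin. All 4 groups overlapped. Unlike Loxl1 and Loxl3, it was high in control PBS mouse 1 and CKO PBS mouse 2 rather than in mouse 3 of these groups.

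**Figure D3:**
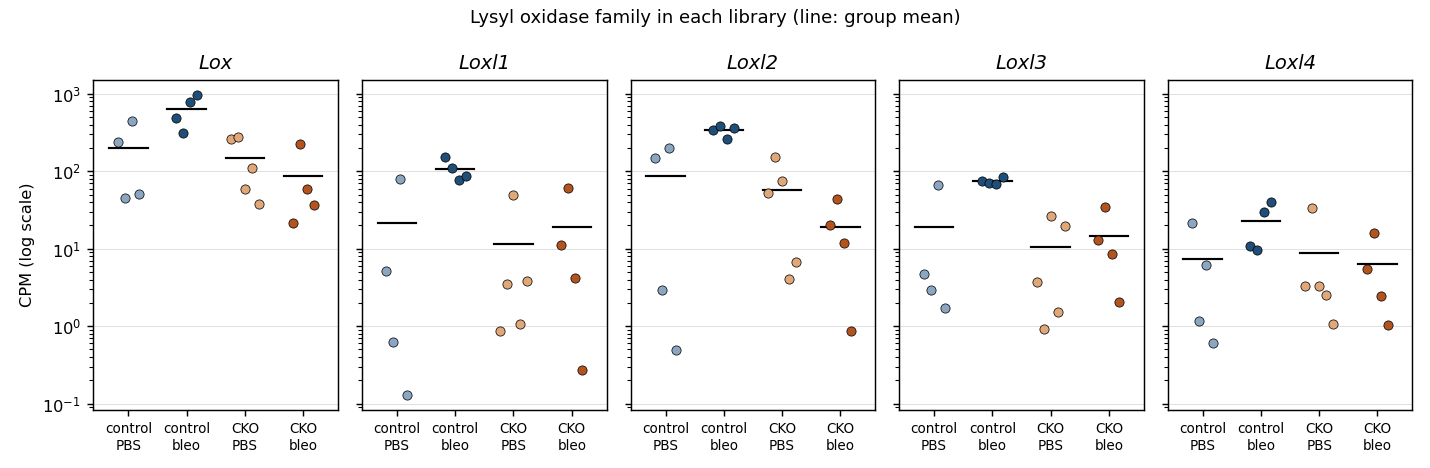
CPM of the 5 members in each library on a log scale, with 1 point per mouse, columns for the 4 groups, and a line at each group mean. Control bleomycin libraries were the highest group for every member by mean, and for Loxl2 and Loxl3 all 4 were above every other library.

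The effect of bleomycin was examined first in control mice. All 5 members were higher after bleomycin, with log2 fold changes of 1.70 (SE 0.88) for Lox, 2.32 (SE 1.73) for Loxl1, 1.94 (SE 1.42) for Loxl2, 1.95 (SE 1.22) for Loxl3 and 1.61 (SE 1.21) for Loxl4. The median of the members was 1.94 and that of all 10481 genes was -0.06, and 44.5% of all genes were higher. With Benjamini-Hochberg adjustment of edgeR's quasi-likelihood test, 0 of 5 members and 0% of all genes passed an adjusted p of 0.05, and the members' adjusted p ran from 0.383 for Lox to 0.526 for Loxl4. At an unadjusted p under 0.05, 0 of 5 members were called, where 14.3% of all genes were. At that unadjusted level DESeq2 called 1 member and 18% of all genes, and limma voom called 5 members and 16.9% of all genes. DESeq2 with a term for the 2 runs of columns in the count matrix called 3 of the 4 members it tested and 19.5% of all genes, with no p-value for Loxl4. None of these fits called a member after adjustment. Over all genes DESeq2 then called 166 of 10392, DESeq2 with the runs of columns 231 of 10215, and limma voom 0. The groups did not overlap for 2 members, Loxl2 and Loxl3, and 5.72% of all genes were higher without overlap.

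These fold changes depended on control PBS mouse 3. Without it the log2 fold change of Loxl1 was 5.80 and that of Loxl3 was 4.62, against 2.32 and 1.95 with it. That of Lox was 2.55 and that of Loxl2 was 2.78. Without control PBS mouse 1 the value of Loxl4 was 3.08. All 4 control bleomycin mice but only 1 of 4 control PBS mice carry animal numbers of series 12, the others being of series 11. Among series 12 animals the log2 fold changes were 1.42 for Lox, 4.39 for Loxl1, 1.20 for Loxl2, 3.99 for Loxl3 and 0.077 for Loxl4, all on the log2 scale. That comparison rests on 1 PBS library, control PBS mouse 1, which is assumed to vary like the other groups. With the number series as a covariate the values were 0.61 for Lox, 3.19 for Loxl1, 0.61 for Loxl2, 2.96 for Loxl3 and 0.16 for Loxl4. Without the 3 libraries that went against their labels the values were 1.93 for Lox, 2.31 for Loxl1, 1.87 for Loxl2, 1.98 for Loxl3 and 1.88 for Loxl4.

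Between CKO and control mice given PBS no difference in the family exceeded the spread between mice. The log2 fold changes were -0.41 (SE 0.81) for Lox, -0.87 (SE 1.56) for Loxl1, -0.60 (SE 1.30) for Loxl2, -0.86 (SE 1.11) for Loxl3 and 0.25 (SE 1.13) for Loxl4. The 95% interval for Loxl1 ran from -4.19 to 2.46, so changes of many fold in either direction could not have been seen. No member passed an unadjusted p of 0.05 by edgeR, DESeq2 or limma voom, where 1.99%, 3.36% and 0.458% of all genes did. The ranges of all 5 overlapped, while 0.248% of all genes did not overlap. Of the members 4 were lower, where 53.6% of all genes were. The direction turned when 1 mouse was left out. Without control PBS mouse 3 the log2 fold changes were 0.43 for Lox, 2.57 for Loxl1, 0.23 for Loxl2 and 1.78 for Loxl3. Without CKO PBS mouse 2 that of Loxl4 was -1.54, and without CKO PBS mouse 3 that of Loxl1 was -3.23. The 3 libraries that went against their labels were all given bleomycin, and leaving them out changed these values little, to between -0.89 for Loxl1 and 0.29 for Loxl4.

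The comparison of CKO with control mice after bleomycin set mice given 4-hydroxytamoxifen against mice given corn oil. It holds the effect of the drug as well as that of Ephb4 loss, which were not tested apart. All 5 members were lower in CKO mice. Lox was lower by a log2 fold change of -2.90 (SE 0.92, 95% interval -4.86 to -0.95), a 7.49-fold difference, and Loxl2 by -4.14 (SE 1.56, -7.46 to -0.81), a 17.6-fold difference. The values were -2.47 (SE 1.74) for Loxl1, -2.34 (SE 1.24) for Loxl3 and -1.85 (SE 1.22) for Loxl4. The median of the members was -2.47, that of all genes was 0.01, and 49.3% of all genes were lower.

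The unadjusted p of edgeR's quasi-likelihood test was 0.00637 for Lox and 0.0182 for Loxl2, which ranked 324 and 873 among 10481 genes by p. With Benjamini-Hochberg adjustment they were 0.206 and 0.218 by edgeR, and 0 of 5 members passed 0.05, as did 0% of all genes. At the unadjusted level 2 of 5 members were lower, where 9.18% of all genes were. The groups did not overlap for 4 members, Lox, Loxl1, Loxl2 and Loxl3, where 12.2% of all genes were lower without overlap. The adjusted p depended on the tool. DESeq2 gave adjusted p of 0.0254 for Lox and 0.0352 for Loxl2 and called 399 genes in all, with Loxl3 also past an unadjusted 0.05 beside 26.2% of all genes, and with the runs of columns as a covariate it gave 0.0166 and 0.0255 and called 387. By limma voom 0 genes passed and 2415 (23%) had an unadjusted p under 0.05, among them Lox, Loxl1, Loxl2 and Loxl3. Over 32 alternatives the adjusted p ranged from 0.0166 to 0.999 for Lox and from 0.0255 to 0.999 for Loxl2.

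Leaving out the 3 libraries whose sex-linked genes went against their labels left 3 control and 2 CKO mice given bleomycin. The log2 fold changes were then -4.00 for Lox, -5.61 for Loxl1, -5.70 for Loxl2, -3.88 for Loxl3 and -3.99 for Loxl4, each further from 0. The 3 control mice left were all of series 12 and the 2 CKO mice both of series 11, so genotype and number series cannot be told apart there. Of the CKO mice left out, mouse 2 had the highest level of all 5 members in its group. Among series 12 animals only, 4 control and 2 CKO mice, the values were -2.35 for Lox, -1.53 for Loxl1, -3.38 for Loxl2, -1.60 for Loxl3 and -1.03 for Loxl4. Both of these CKO mice, 1 and 2, are among the 3 libraries that went against their labels. Without CKO bleomycin mouse 2 alone the values were -4.03 for Lox, -4.37 for Loxl1, -4.94 for Loxl2, -3.23 for Loxl3 and -2.93 for Loxl4.

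**Figure D4:**
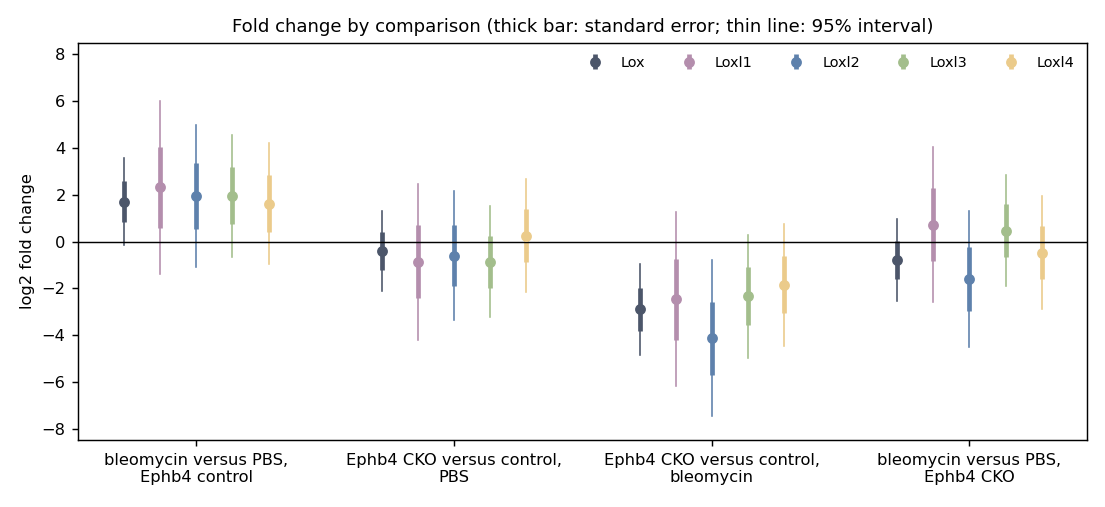
Log2 fold change of the 5 members in the 4 comparisons between groups, with thick bars for 1 standard error and thin lines for the 95% interval. Both were derived from edgeR's fold change and F. All 5 points lie above 0 for bleomycin versus PBS in control mice and below 0 for CKO versus control after bleomycin, where the intervals of Lox and Loxl2 leave out 0.

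Within CKO mice the members differed in sign between bleomycin and PBS. Lox (-0.79, SE 0.82), Loxl2 (-1.59, SE 1.36) and Loxl4 (-0.48, SE 1.13) had negative log2 fold changes, and Loxl1 (0.72, SE 1.56) and Loxl3 (0.47, SE 1.11) positive ones. No member passed an unadjusted p of 0.05 by edgeR, where 0.964% of all genes did. All 5 overlapped in range, as did all but 0.0859% of genes, and 3 of 5 were lower, where 55.8% of all genes were. Without CKO bleomycin mouse 2 the values of Loxl1 and Loxl3 were -1.18 and -0.42, and without CKO PBS mouse 3 they were 3.06 and 1.15. Without the 3 libraries that went against their labels all 5 were negative, from -1.03 for Loxl3 to -3.24 for Loxl2. Among series 12 animals, 2 against 2 with both bleomycin libraries against their labels, Loxl1 was at 4.08 and Loxl3 at 3.35 while Lox was at -1.11, Loxl2 at -1.67 and Loxl4 at -0.77.

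The interaction of genotype and bleomycin tests whether the bleomycin effect differed between CKO and control mice. The interaction term was negative for all 5 members and for 50.3% of all genes on the log2 scale, at -2.49 (SE 1.20) for Lox, -3.53 (SE 1.97) for Loxl2, -2.10 (SE 1.66) for Loxl4, -1.60 (SE 2.30) for Loxl1 and -1.48 (SE 1.64) for Loxl3. The unadjusted p was 0.0559 for Lox and 0.0929 for Loxl2, and edgeR's adjusted p was 0.916 for both. No member had an unadjusted p under 0.05, where 3.46% of all genes did, while DESeq2 and limma voom each called Lox and Loxl2 at that level beside 5.24% and 2.86% of all genes. Without the 3 libraries that went against their labels the terms were -3.60 for Lox, -4.73 for Loxl1, -5.12 for Loxl2, -3.01 for Loxl3 and -4.28 for Loxl4. The 3 comparisons that use the control bleomycin libraries share those 4 mice, so their values are not independent of each other.

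The members varied in different ways across the 17 libraries. Pearson's correlation of log2 CPM was 0.907 between Loxl1 and Loxl3 and 0.865 between Loxl2 and Loxl4, but 0.448 between Loxl3 and Loxl4. Over the 14 libraries left without those against their labels these were 0.894, 0.890 and 0.409. These correlations are descriptions, since the points share libraries, depth and the mix of cells. CKO PBS mouse 2 showed the split most clearly, with Lox at 275, Loxl2 at 152 and Loxl4 at 33.7 CPM beside Loxl1 at 3.48 and Loxl3 at 0.933 CPM. Control PBS mouse 1 had the same shape, with Loxl2 at 148 and Loxl4 at 21.5 CPM beside Loxl1 at 5.16 and Loxl3 at 4.73 CPM. In CKO PBS mouse 5 Loxl3 at 19.8 CPM was above Loxl2 at 6.85 CPM, with Lox at 38.4 and Loxl1 at 3.80 CPM.

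Fibroblast marker levels moved with the family. The fibroblast score, the mean log2 CPM of the 10 markers of 14 that passed the filter, was 6.11 ± 0.38 (SD, n = 4) in control bleomycin mice, 1.34 ± 3.17 (n = 4) in control PBS mice, 1.32 ± 1.85 (n = 5) in CKO PBS mice and 2.08 ± 2.68 (n = 4) in CKO bleomycin mice. Its correlation with log2 CPM over the 17 libraries was 0.962 for Loxl3, 0.961 for Loxl1, 0.801 for Loxl2, 0.644 for Lox and 0.599 for Loxl4. Over the 14 libraries it was 0.957 for Loxl3, 0.955 for Loxl1, 0.797 for Loxl2, 0.711 for Lox and 0.574 for Loxl4. Control PBS mouse 3, the PBS library with the most Loxl1 and Loxl3, also had the highest score of its group at 5.75, and CKO PBS mouse 3 and CKO bleomycin mouse 2 were the highest of theirs at 4.16 and 5.00.

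**Figure D5:**
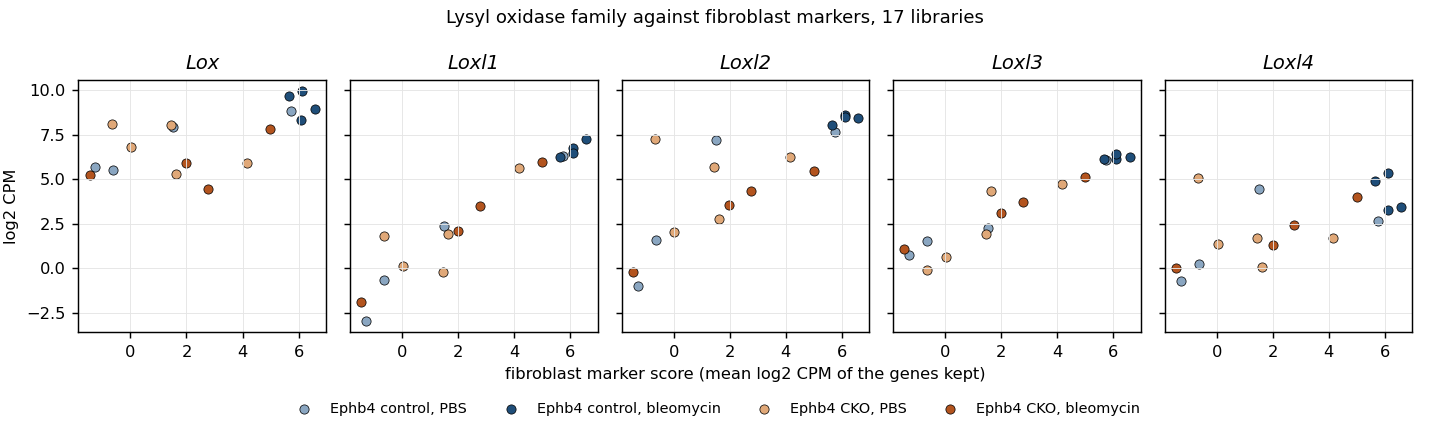
Log2 CPM of each member against the fibroblast marker score in the 17 libraries, coloured by group. Loxl1 and Loxl3 follow the score closely (Pearson 0.961 and 0.962), while Lox and Loxl4 spread widely at low scores (0.644 and 0.599). The Pearson values used log2 CPM with a prior count of 2, and the members' plotted values used no prior count.

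After bleomycin the scores of the genotypes did not overlap, at 5.65 to 6.58 in control and -1.45 to 5.00 in CKO mice, so marker content and genotype cannot be told apart in these libraries. With the score as a covariate the log2 fold change between CKO and control mice after bleomycin was -2.06 for Lox, -2.63 for Loxl2 and -1.46 for Loxl4, but 0.20 for Loxl1 and 0.041 for Loxl3. For bleomycin versus PBS in controls the covariate gave 0.81 for Lox, 0.21 for Loxl2 and 0.93 for Loxl4, and -0.059 for Loxl1 and -0.011 for Loxl3. The macrophage score, over 18 markers all of which passed the filter, was 3.97 to 7.87 in control and 8.06 to 8.60 in CKO mice after bleomycin. With it as a covariate the values were -2.13 for Lox, -1.19 for Loxl1, -2.93 for Loxl2, -1.97 for Loxl3 and -0.77 for Loxl4. The members' Spearman correlation with the macrophage score was -0.909 for Lox, -0.865 for Loxl2, -0.848 for Loxl4, -0.711 for Loxl1 and -0.522 for Loxl3. The Pearson values were -0.628, -0.601, -0.497, -0.552 and -0.418 in the same order. Over the 14 libraries the Spearman values were -0.899, -0.899, -0.877, -0.754 and -0.499.

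Markers of other cells were also present. Smooth muscle and pericyte markers (6 genes, 3 kept) summed to 253 to 333 CPM in control bleomycin mice and to 2.58 to 213 CPM in CKO bleomycin mice. The Pearson correlation of their score was 0.943 with Loxl1, 0.830 with Loxl2, 0.819 with Loxl3, 0.806 with Loxl4 and 0.665 with Lox. Over the 14 libraries the values were 0.932, 0.841, 0.790, 0.809 and 0.765 in the same order. Epithelial markers (6 genes, 5 kept) were highest in CKO PBS mouse 2 and control PBS mouse 1, at 2143 and 1802 CPM in sum. These were the PBS libraries with the most Loxl4 and little Loxl3, and mesothelial markers, of which 2 of 5 were kept, were also highest there at 992 and 681 CPM. The 2 kept were Msln, which reached 402 CPM in control PBS and 602 CPM in CKO PBS mice, and the keratin Krt19, which reached 278 and 390 CPM. Upk3b was at 0 in all 4 control PBS libraries and in 3 of 5 CKO PBS libraries. Wt1 and Lrrn4 were each at 0 in 3 of 4 control PBS and 4 of 5 CKO PBS libraries, so most of this list was not found there. Endothelial markers (6 genes, all kept) summed to 62.7 to 196 CPM in control bleomycin and 38.8 to 72.4 CPM in CKO bleomycin mice. The part of these cells in the members' values was not tested.

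Other genes of the crosslinking pathway were counted by role from a list of 32, of which 30 were tested. In control mice 24 of the 30 were higher after bleomycin and 6 lower, with a median log2 fold change of 1.67, where 44.5% of all genes were higher. By edgeR 6 were higher at an unadjusted p under 0.05, where 6.28% of all genes were, and 0 passed adjustment. After bleomycin 25 of 30 were lower in CKO mice (median -2.73), where 49.3% of all genes were. At an unadjusted p under 0.05, 13 were lower and 1 was higher, where 9.18% of all genes were lower and 11% higher, and 0 passed edgeR's adjustment. Tll1 and Col11a1 passed the filter through control bleomycin mice, with at most 7.95 and 9.73 CPM in the other groups. Their direction in comparisons with that group is therefore no independent result. Between CKO and control mice given PBS 21 of 30 were lower (median -0.71), where 53.6% of all genes were. Of the 30, 0 had an unadjusted p under 0.05, where 1.99% of all genes did. Without the 3 libraries that went against their labels 24 of 30 were lower in CKO mice after bleomycin (median -3.48), and 11 of them were at an unadjusted p under 0.05, where 8.58% of all genes were lower. In control mice 24 were then higher after bleomycin (median 1.67), 5 of them at that level, where 5.4% of all genes were, and 21 were lower in CKO mice given PBS (median -0.69).

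The substrates were lower in CKO mice after bleomycin in 9 of 9 cases, 6 of them at an unadjusted p under 0.05. Over all genes 49.3% were lower, and 9.18% were lower at that level. The 9 include Col11a1, which passed the filter through control bleomycin mice. Col1a1, a chain of type I collagen, was at 652 to 2239 CPM in control and 1.54 to 157 CPM in CKO mice (log2 fold change -4.70, SE 2.01). Eln, which encodes elastin, was at 15.1 to 41.0 CPM in control and at 0 to 0.300 CPM in CKO mice. Its log2 fold change of -7.43 (SE 2.96) depends on the prior count at such low levels. For bleomycin versus PBS in control mice the log2 fold change of Eln was -0.09 (SE 2.21), too imprecise to tell it from the values of the enzymes. In the control PBS group its highest library was at 109 CPM and the median was 0.197 CPM. Again 9 of 9 substrates were lower in CKO mice after bleomycin when the 3 libraries were left out, 2 of them at an unadjusted p under 0.05. At that level 8.58% of all genes were then lower. The log2 fold change of Col1a1 was then -6.86 (SE 3.22).

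Enzymes and helpers that act before or beside the lysyl oxidases were also lower for the most part. Plod2, the lysyl hydroxylase that prepares collagen telopeptides for stable crosslinks, was at 145 to 263 CPM in control mice and at no more than 74.8 CPM in CKO mice after bleomycin (log2 fold change -2.91, SE 1.27). Of the lysyl hydroxylases and helpers 5 of 6 were lower, 3 of them at an unadjusted p under 0.05. Over all genes 49.3% were lower, and 9.18% were lower at that level. Bmp1, which cleaves the Lox propeptide, was at 108 to 414 CPM in control and 6.05 to 55.6 CPM in CKO mice (-2.66, SE 1.15). All 5 proteinases and scaffolds were lower, 2 of them at that level. The 5 include Tll1, which passed the filter through control bleomycin mice. Among the elastic fibre genes Efemp2, or fibulin-4, which brings Lox to elastin, was at 102 to 160 CPM against 11.3 to 85.8 CPM (-1.72, SE 0.65) and was the only one of the 5 tested past an unadjusted p of 0.05. Fbln5, the partner of Loxl1, was at 26.6 to 51.3 CPM against 1.16 to 35.5 CPM (-1.73, SE 1.51). When the 3 libraries were left out the values were -5.36 (SE 1.90) for Plod2, -3.32 (SE 1.77) for Bmp1, -2.85 (SE 0.85) for Efemp2 and -3.50 (SE 2.30) for Fbln5. Of the 5 elastic fibre genes 2, Efemp2 and Fbn1, were then lower at an unadjusted p under 0.05, where 8.58% of all genes were.

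Genes of copper supply had values of the other sign. Atp7a, which loads copper into secreted enzymes, was at 18.5 to 57.8 CPM in control and 45.9 to 77.4 CPM in CKO mice after bleomycin (log2 fold change 0.45, SE 0.33). All 3 copper genes had positive values, and Atox1, a copper chaperone, was at 0.68 (SE 0.31, unadjusted p = 0.0454 in edgeR's quasi-likelihood test). Over all genes 11% were higher at an unadjusted p under 0.05. Of the other crosslinking enzymes Pxdn, a peroxidase of basement membrane collagen, was at 90.0 to 174 CPM against 6.15 to 24.3 CPM (-2.80, SE 0.94, unadjusted p = 0.00921 in edgeR's quasi-likelihood test). Tgm2, a transglutaminase, was at 282 to 784 CPM against 163 to 2097 CPM (0.71, SE 0.71). With the 3 libraries left out Atp7a was at 0.44 (SE 0.46), Atox1 at 0.81 (SE 0.44), Pxdn at -3.29 (SE 1.45) and Tgm2 at 1.17 (SE 0.78), of which only Pxdn was past an unadjusted p of 0.05.

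For each member the 3 genes with the most similar log2 CPM over the 17 libraries were listed as a description. Lox was closest to Acsl3 (Pearson 0.928), Dnajc10 and Tceal8. Acsl3 activates fatty acids and Dnajc10 is a chaperone of the endoplasmic reticulum. Loxl1 was closest to Col16a1 (0.984), Col1a1 and Kif26b, and Loxl3 to Hoxb3 (0.988), Fam20a and Col1a2. Loxl2 was closest to its copy Gm21451 (1.00), then to Pxdn (0.977) and Lamb1, a laminin chain of the basement membrane. Reads that fit both Loxl2 and Gm21451 are divided between them, so the value for Gm21451 is no measure of similar expression. Loxl4 was closest to Bdnf (0.978), a neurotrophin, Kank1 and Hs6st2. With Spearman's rho in place of Pearson's r the list for Lox shared 0 of its 3 genes, that for Loxl1 shared 1 and those for Loxl3 and Loxl4 shared 2. Over the 14 libraries left without those against their labels the Pearson list for Loxl2 shared 3 of its 3 genes, those for Lox, Loxl1 and Loxl3 shared 2 and that for Loxl4 shared 1.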

How the data were processed

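Whole-number gene counts were deposited by the authors without normalization. They aligned the 75 bp paired reads of ribosome-depleted libraries to GRCm38 with HISAT2 2.1.0 in strand-specific mode after Cutadapt trimming and derived counts with StringTie and its prepDE script, so that reads of near-identical genes are divided by its estimate. All 17 columns matched a labelled mouse. Here, genes with CPM over 10 in at least 2 libraries were kept (10481 of 55421), TMM library sizes were used, and 1 mean per group was fitted over all 17 libraries with edgeR 4.0.16 (R 4.3.3; glmQLFit and glmQLFTest, Benjamini-Hochberg adjustment over the genes kept, threshold 0.05). Log2 CPM used a prior count of 2. The study fitted a batch term, but the labels do not name each library's batch. DESeq2 1.42.0 and limma 3.58.1 (voom) were alternatives. The procedure was tested on simulated data. Each library is from 1 mouse. Depth was 66540022 to 120554468 counts, and a floor of 3 counts covers counting error only.

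Genes named are the 5 members, Ephb4, their 3 most correlated genes each, and members of a pathway list, with positions and lengths from GENCODE M21. Pxdn, Atox1, Col1a2 and marker genes were named because a small count or list included them. The members, lists and tests were chosen with earlier results of these data known. The promoter table matched 1 of 5 members and no promoter was used.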

Additional observations from a re-analysis of the deposited data

Results flagged for a closer look

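In groups of 4 or 5 mice, 24 sets of values (the 5 members and Ephb4 in 4 groups) were searched for a mouse far from the others of its group, and 5 were found on the CPM scale. The usual rate of about 1 in 20 by chance is for values without skew, and these were skewed. On the log2 CPM scale, tried after the data had been seen, 0 of the 24 were found. Loxl1 was at 79.4 CPM in control PBS mouse 3, where the next mouse was at 5.16 CPM, and at 49.2 CPM in CKO PBS mouse 3, where the next was at 3.80 CPM. Loxl3 was at 67.4 CPM in control PBS mouse 3, above 4.73 CPM in the next. Loxl4 was at 33.7 CPM in CKO PBS mouse 2, above 3.28 CPM in the next, and Ephb4 itself was at 23.6 CPM in the same library, above 8.97 CPM. Fibroblast markers summed to 1246 CPM in control PBS mouse 3, with 58.5 CPM in the next mouse of that group. In CKO PBS mice they summed to 405 CPM in mouse 3 but to 806 CPM in mouse 1, where Loxl1 was at 0.877 CPM. They summed to 13.2 CPM in CKO PBS mouse 2, which had instead 2143 CPM of epithelial markers.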

How the results depend on the processing

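In CKO versus control mice after bleomycin, Lox, Loxl2 and Loxl4 were lower under every alternative run, as were Loxl1 and Loxl3 except with the fibroblast score as a covariate, where they were 0.20 and 0.041. Members past the adjusted threshold numbered 0 by edgeR and limma voom, and 2 by DESeq2 and by DESeq2 with the runs of columns as a covariate. Over all genes these were 0 by edgeR and limma voom, 399 of 10392 by DESeq2 and 387 of 10215 with the runs of columns. With the runs of columns DESeq2 gave no p-value for Loxl4, here or in the comparisons below, so that fit tested 4 members. Members with an unadjusted p under 0.05 numbered 2 by edgeR (20.2% of all genes), 4 by limma voom (23%), 1 with the fibroblast score (4.05%) or the macrophage score (3.36%) as a covariate, and 2 to 3 with 1 library left out (10% to 23.3%).

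For bleomycin versus PBS in controls they numbered 0 by edgeR (14.3% of all genes), 1 by DESeq2 (18%), 3 by DESeq2 with the runs of columns (19.5%), 5 by limma voom (16.9%), 1 without the 3 libraries that went against their labels (10.9%), 2 in series 12 animals (7.82%) and 0 to 3 with 1 library left out (7.1% to 24.8%). The fibroblast score turned Loxl1 to -0.059 and Loxl3 to -0.011. In CKO mice the number was 3 in series 12 animals (6.71%, against 0.964% in all animals, with 3 genes past adjustment) and 0 to 1 with 1 library left out (0.297% to 2.71%). Both CKO bleomycin libraries of series 12 are among the 3 against their labels. There Loxl4 turned to 0.42 by limma voom, 0.68 with sex as a covariate and 0.081 with the macrophage score. Loxl1 turned to -0.84 with the fibroblast score, and without the 3 libraries Loxl1 was at -2.41 and Loxl3 at -1.03. With 1 library left out Loxl1 ranged from -1.18 to 3.06, Loxl3 from -0.42 to 1.15 and Loxl4 from -1.56 to 1.31.

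For the interaction the number was 2 by DESeq2 (5.24% of all genes), by DESeq2 with the runs of columns (4.96%) and by limma voom (2.86%), 1 without a filter on low counts (3.78%), without the 3 libraries (5.71%) and in series 12 animals (2.02%), and 0 to 3 with 1 library left out (1.5% to 11.7%). The series 12 values of the bleomycin effect in controls and of the interaction rest on 1 control PBS library, assumed to vary like the others. The term of Loxl3 was 0.022 with the fibroblast score, and that of Loxl1 ranged from -5.03 to 0.75 with 1 library left out.

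Between CKO and control mice given PBS signs turned under several settings. Loxl4 was at -0.11 by DESeq2 with the runs of columns, -0.22 with sex, -0.20 with the number series as a covariate and -0.19 in series 12 animals, in which Lox was at 0.18. Limma voom gave 0.67 for Loxl1 and 1.09 for Loxl2. The fibroblast score gave 0.29 for Lox, 0.98 for Loxl1, 0.87 for Loxl2 and 0.019 for Loxl3, and the macrophage score 0.11 for Lox, 0.90 for Loxl1 and 0.26 for Loxl2. With 1 library left out Lox ranged from -0.76 to 0.43, Loxl1 from -3.23 to 2.57, Loxl2 from -1.36 to 0.23, Loxl3 from -1.56 to 1.78 and Loxl4 from -1.54 to 1.71.

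The cause of these changes was not tested. No paired analysis was possible because mouse numbers within a group were given in accession order and the labels name no pairs. Depth did not leave any member under the floor of 3 counts.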
